A study of Homo sapiens with 4 samples.

Results

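The genes of major histocompatibility complex (MHC) class I presentation were followed on 4 Affymetrix Clariom S arrays of THP-1 cells. The genes were listed by name as HLA-B, HLA-C, HLA-E, HLA-F, HLA-G, B2M, TAP1, TAP2 and TAPBP, and each was read from the probe set that the platform annotation pairs with that symbol alone. Of these 9 genes, 8 had such a probe set among the 17687 genes named on the array, and HLA-B had none and was not analysed here. The list was known beforehand to hold TAP1, whose signal was lower on the miR-151a-5p array, so this difference is a description and not a finding of the list.

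THP-1 is a human monocytic leukaemia line. Every culture, the control included, was kept with 100 ng/ml phorbol myristate acetate (PMA) for 2 days, which turns the cells into macrophage-like cells, and was then transfected for 24 h by means of lipofectamine RNAiMAX. The groups were a let-7d-5p mimic, a miR-27b-3p mimic, a miR-151a-5p mimic and a negative control mimic, with 1 array each, and a mimic is a synthetic double-stranded copy of a mature microRNA. The title of 1 sample gives let-7d-5p, but let-7a-5p stands in the design text and in the protocol, so that the mimic on that array is not settled. Its group is called let-7d-5p after the title. The labels also call the line lymphocyte-like in 1 field. With 1 array per group there was no spread between cultures to test against, no p-value was computed, and every difference below is between 2 arrays without a replicate check. The 3 comparisons with the control share the control array. The arrays carry RNA of whole cultures, in which fewer cells expressing a gene and less RNA per cell cannot be told apart.

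MHC class I molecules show peptides from inside the cell to CD8 T cells. A heavy chain, such as HLA-C, pairs with beta-2-microglobulin (B2M) in the endoplasmic reticulum, and the TAP1-TAP2 transporter moves peptides cut by the proteasome into that compartment. Tapasin (TAPBP) bridges the heavy chain to the transporter and favours the exchange of weak peptides for stronger ones. HLA-E, HLA-F and HLA-G are the non-classical heavy chains, which are less variable and are read mainly by receptors of natural killer and myeloid cells. Most of these genes are known to respond to interferons and to NF-kB.

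The mature sequences of 3 microRNAs named in the labels are shown because the 2 names given for 1 array differ in letters but not in the seed. Bases 2 to 8 from the 5′ end, the seed through which a microRNA pairs with its targets, are in capitals, and the sequences are those of RefSeq (GRCh38.p14).
hsa-let-7d-5p: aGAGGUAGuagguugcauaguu
hsa-let-7a-5p: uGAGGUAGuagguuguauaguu
hsa-miR-27b-3p: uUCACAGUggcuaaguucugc

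The promoters of 4 members and of PSMB9 are shown because TAP1 and PSMB9, a catalytic subunit of the immunoproteasome, start back to back. They differed in opposite directions on the miR-151a-5p array (-0.85 and 0.26), and both were above the control on the other mimic arrays. Each window holds 250 bases before and 50 bases after an annotated start of RefSeq (GRCh38.p14), read 5′ to 3′ on the strand of the gene. Between the starts of TAP1 and PSMB9 lie 487 bases, and their windows share 13 bases, so that both together cover that interval. Capitals mark matches on either strand to GAAA repeated after any 2 bases, the kind of repeat that interferon regulatory factors bind, and to the NF-kB consensus. The 2 motifs did not overlap in these windows.
TAP1, chr6:32853655-32853954, minus strand: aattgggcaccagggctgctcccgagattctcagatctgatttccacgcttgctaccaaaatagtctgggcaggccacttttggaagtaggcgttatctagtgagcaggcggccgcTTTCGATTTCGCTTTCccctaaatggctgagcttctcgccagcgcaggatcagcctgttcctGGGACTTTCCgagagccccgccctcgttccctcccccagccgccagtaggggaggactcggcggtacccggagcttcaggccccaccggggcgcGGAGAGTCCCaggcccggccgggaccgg
PSMB9, chr6:32853942-32854241, plus strand: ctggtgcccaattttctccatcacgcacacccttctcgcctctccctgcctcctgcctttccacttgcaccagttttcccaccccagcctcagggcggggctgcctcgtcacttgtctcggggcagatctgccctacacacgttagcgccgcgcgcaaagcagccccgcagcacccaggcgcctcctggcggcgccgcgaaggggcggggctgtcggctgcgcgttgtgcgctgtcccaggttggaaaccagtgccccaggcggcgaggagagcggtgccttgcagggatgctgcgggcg
TAPBP, chr6:33314029-33314328, minus strand: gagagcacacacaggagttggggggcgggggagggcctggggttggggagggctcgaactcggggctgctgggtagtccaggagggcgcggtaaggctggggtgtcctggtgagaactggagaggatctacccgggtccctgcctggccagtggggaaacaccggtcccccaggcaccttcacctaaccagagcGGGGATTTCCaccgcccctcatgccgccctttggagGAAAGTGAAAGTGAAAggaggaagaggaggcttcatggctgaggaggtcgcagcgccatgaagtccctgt
B2M, chr15:44711267-44711566, plus strand: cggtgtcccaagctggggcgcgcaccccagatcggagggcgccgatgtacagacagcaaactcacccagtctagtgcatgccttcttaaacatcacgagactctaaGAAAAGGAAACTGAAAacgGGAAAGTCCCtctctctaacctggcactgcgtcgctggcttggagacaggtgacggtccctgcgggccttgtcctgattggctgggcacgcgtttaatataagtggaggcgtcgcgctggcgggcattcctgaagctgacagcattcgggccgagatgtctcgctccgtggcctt
HLA-C, chr6:31272043-31272342, minus strand: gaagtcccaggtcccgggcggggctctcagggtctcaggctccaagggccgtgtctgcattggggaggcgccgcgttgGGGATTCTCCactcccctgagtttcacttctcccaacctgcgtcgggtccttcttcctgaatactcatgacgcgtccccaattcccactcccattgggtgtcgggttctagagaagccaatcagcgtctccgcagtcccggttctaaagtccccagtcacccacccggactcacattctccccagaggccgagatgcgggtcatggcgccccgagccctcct

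A promoter window was at hand for 8 of the 9 members, without HLA-E, and TAP1 had 2 windows and HLA-G 3. The spaced GAAA repeat occurred in a window of 5 of the 8 genes (HLA-F, B2M, TAP1, TAP2 and TAPBP), and 3.57% of all 35116 promoter windows hold it. The NF-kB consensus occurred in 5 of the 8 (HLA-B, HLA-C, B2M, TAP1 and TAPBP), against 5.91% of all windows. CCAAT, read on both strands like the others, occurred in 6 of the 8, against 34.6% of all windows. In the TAP1 window, overlapping matches to the GAAA repeat on the opposite strand began 134 and 128 bases before the start, and an NF-kB match began 72 bases before it. The window of PSMB9 held neither of these motifs, but it reaches only 250 bases before that start. The matches before the TAP1 start lie in the 487 bases between the starts, and so also upstream of PSMB9, outside its window. A match is only a stretch of letters and says nothing of binding in these cells.

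TAP1, a subunit of the peptide transporter, was the member that differed most. Its log2 signal was 11.32 on the let-7d-5p array, 11.15 on that of miR-27b-3p and 10.26 on that of miR-151a-5p, against 11.11 on the negative control array. The miR-151a-5p array was thus the low one, and the other 3 lay within 0.21 of each other. Against the control, TAP1 was 1.80-fold lower on the miR-151a-5p array (log2 difference -0.85), and the differences were 0.21 on the let-7d-5p array and 0.04 on the miR-27b-3p array. TAP1 was low there against the other mimic arrays as well, 2.08-fold lower than on the let-7d-5p array (-1.06) and 1.85-fold lower than on the miR-27b-3p array (-0.89). TAP1 was the 1 member at least 1.5-fold lower in each of these 2 pairs of arrays, beside 4.09% and 5.22% of all genes.

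**Figure D1:**
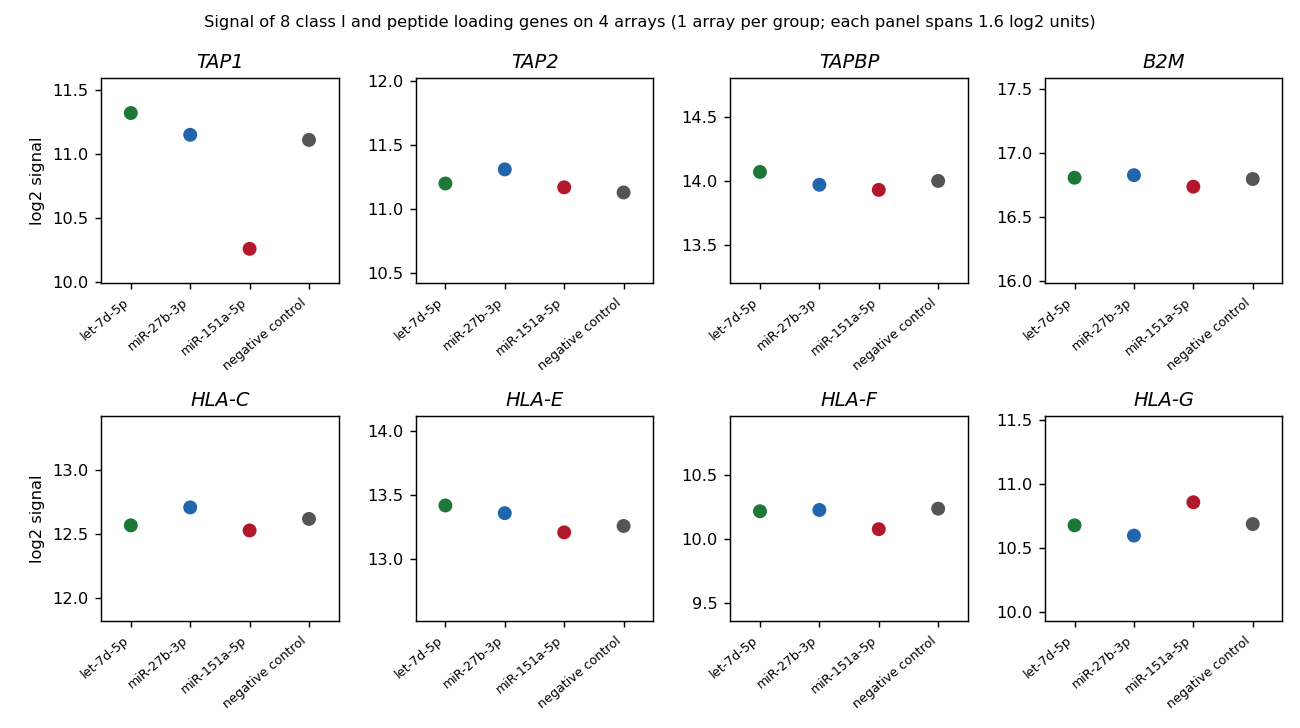
Log2 signal of the 8 measured genes on the 4 arrays, 1 point per array, with the 3 mimics left of the negative control and 1.6 log2 units in each panel. TAP1 on the miR-151a-5p array, at 10.26, stands below the other 3 arrays, whereas the points of the other genes span 0.26 or less.

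The size of the TAP1 difference was set beside all other genes, as a description. Genes were counted as above background where the log2 signal passed 5.34, the 95th percentile of 348 olfactory receptor genes. Of 11880 genes above this floor on the miR-151a-5p or the control array, 77 were lower than TAP1 by difference, and 2.47% differed by as much in either direction. At least 1.5-fold below each of the other 3 arrays were 0.611% of all genes and 0.477% of the 11112 genes above the floor on all 4 arrays, TAP1 among them, and it was the 8th of these genes by its distance to the lowest other array. Over the 4 arrays TAP1 spanned 1.06, and 3.10% of the genes above the floor spanned as much.

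**Figure D2:**
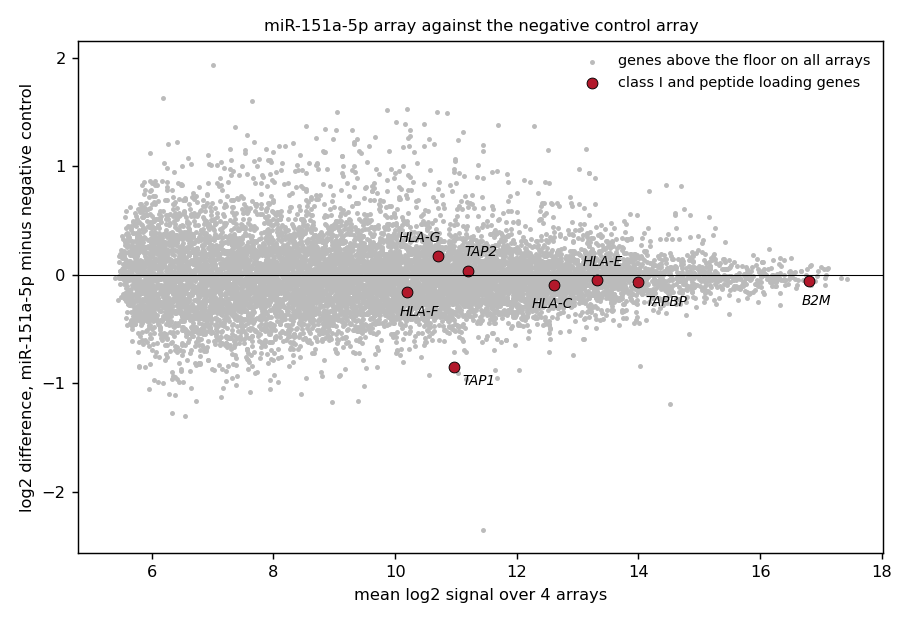
Log2 difference between the miR-151a-5p and the negative control array (vertical axis) against the mean log2 signal over 4 arrays (horizontal axis) for 11112 genes above the floor on all arrays, in grey, with the 8 class I and peptide loading genes in red. TAP1 lies at -0.85 near the lower edge of the cloud, and the other 7 genes lie between -0.16 and 0.17.

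TAP2, the other subunit of the transporter, did not share the low signal of its partner. It read 11.20 on the let-7d-5p array, 11.31 on the miR-27b-3p one and 11.17 on the miR-151a-5p array, against 11.13 on the control array. All 3 mimic arrays were thus slightly above the control, by 0.07, 0.18 and 0.04 in the same order. TAPBP, which encodes tapasin, read 14.07, 13.97 and 13.93 on the let-7d-5p array, the miR-27b-3p one and the miR-151a-5p one, against 14.0 on the control array. Its largest difference was 0.07 in size, on the let-7d-5p array above the control and on the miR-151a-5p array below it.

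The light chain gene B2M was at 16.81, 16.83 and 16.74 on the let-7d-5p array, the miR-27b-3p one and the miR-151a-5p one, against 16.80 on the control array. These signals are close to the top of the scale, whose highest value on any array was 17.84, where an array can understate differences. B2M spanned 0.09 over the 4 arrays, and 97.4% of the genes above the floor spanned at least as much.

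HLA-C, the classical heavy chain that was measured, had 12.57, 12.71 and 12.53 on the let-7d-5p array, the miR-27b-3p one and the miR-151a-5p one, against 12.62 on the control array. The miR-27b-3p array was the high one, by 0.09 over the control, and the miR-151a-5p array the low one, at -0.09. HLA-E, whose protein presents leader peptides of other class I molecules to the NKG2A receptor, read 13.42, 13.36 and 13.21 in that order, against 13.26 on the control array. It was higher by 0.16 on the let-7d-5p array and by 0.10 on the miR-27b-3p one, and differed by -0.05 on that of miR-151a-5p.

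HLA-F, a heavy chain that can reach the cell surface without peptide, was at 10.22, 10.23 and 10.08 on the let-7d-5p array, the miR-27b-3p one and the miR-151a-5p one, against 10.24 on the control array. The largest difference from the control was -0.16, on the miR-151a-5p array. HLA-F spanned 0.16 over the 4 arrays, and 89.6% of the genes above the floor spanned at least as much. HLA-G, known from the placenta as a ligand of inhibitory receptors, was the heavy chain with the widest span, 0.26, and read 10.68, 10.60 and 10.86 on the same arrays, against 10.69 on the control array. Here the miR-151a-5p array was the high one, by 0.17. The heavy chain genes are near-identical over long stretches and vary between people, so that signals of single members may hold RNA of others and depend on the alleles of the line.

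**Figure D3:**
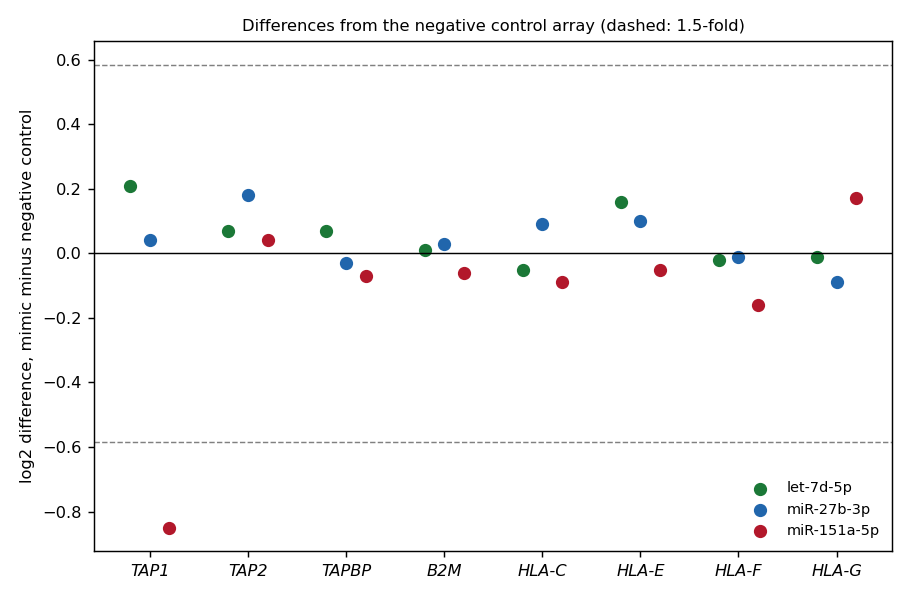
Log2 difference of each mimic array from the negative control array for the 8 genes, with dashed lines at 1.5-fold. TAP1 on the miR-151a-5p array, at -0.85, is the only point beyond a dashed line, and the other points lie between -0.16 and 0.21.

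Counted over the list, 5 of 8 members were higher and 3 lower on the let-7d-5p array, beside 49.2% and 49.3% of all genes, with a median difference of 0.04 against 0.00 over all genes. At least 1.5-fold higher or lower were 0 members there, beside 4.42% and 3.56% of all genes. On the miR-27b-3p array 5 were higher and 3 lower, beside 50.3% and 48.4%, at a median of 0.04 against 0.01, and 0 passed 1.5-fold in either direction, beside 5.07% and 4.7%. On the miR-151a-5p array 2 were higher (HLA-G and TAP2) and 6 lower, beside 47.3% and 51.0%, at a median of -0.07 against -0.01. There 1 member, TAP1, was at least 1.5-fold lower and 0 were higher, beside 3.57% and 5.29% of all genes. At 2-fold 0 members were lower, beside 0.328% of all genes, and at 3-fold 0, beside 0.0226%. A single member in 8 is a small count, and TAP1 was named with this contrast known, so nothing is read from the share. The 7 members other than TAP1 differed from the control by at most 1.13-fold on any array and spanned 0.09 to 0.26 over the 4 arrays, against a median span of 0.37 over the genes above the floor. Their mean signals lay above those of 73.4% (HLA-F) to 99.9% (B2M) of all genes, and genes of like signal were not compared.

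TAP1 lies in the class II region of chromosome 6 among genes of antigen processing. In the order of RefSeq (GRCh38.p14) the protein-coding genes around it are HLA-DOB, TAP2, PSMB8, TAP1, PSMB9, HLA-DMB, HLA-DMA, BRD2 and HLA-DOA. PSMB9 was at 13.71, 13.74 and 13.85 on the let-7d-5p array, the miR-27b-3p one and the miR-151a-5p one, against 13.59 on the control array. It was above the control on all 3 mimic arrays (0.12, 0.15 and 0.26), most on the miR-151a-5p array, on which TAP1 was at its lowest. PSMB9 spanned 0.26 over the 4 arrays, against a median span of 0.37 over the genes above the floor. PSMB8, another catalytic subunit of the immunoproteasome on the far side of TAP1, read 13.33, 13.24 and 13.41, against 13.25 on the control array, and was also highest on the miR-151a-5p array (0.16). Of the 8 measured genes of this stretch, TAP1, known beforehand to be low, was the 1 that passed 1.5-fold lower on any mimic array. Of all genes, 3.56%, 4.7% and 3.57% were at least 1.5-fold lower on the let-7d-5p array, the miR-27b-3p one and the miR-151a-5p one. HLA-DOB and HLA-DOA were below the floor on all 4 arrays.

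**Figure D4:**
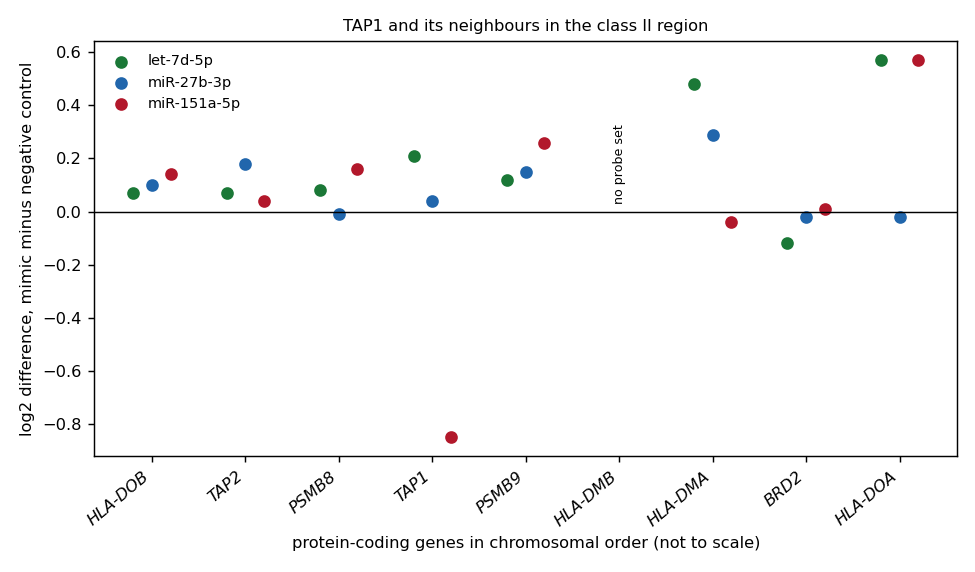
Log2 difference of each mimic array from the negative control array for TAP1 and neighbouring protein-coding genes in chromosomal order, not to scale. On the miR-151a-5p array TAP1 lies at -0.85 between PSMB8 at 0.16 and PSMB9 at 0.26, and HLA-DMB had no probe set.

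Among the genes of the immunoproteasome and of trimming, the largest difference was that of ERAP1, which shortens peptides in the endoplasmic reticulum. It read 13.20, 12.97 and 12.37 on the let-7d-5p array, the miR-27b-3p one and the miR-151a-5p one, against 12.89 on the control array. The miR-151a-5p array was again the low one, at -0.52 from the control, -0.83 from the let-7d-5p array and -0.60 from the miR-27b-3p array. Of the 6 measured genes of the immunoproteasome and of trimming, those above the control numbered 6 for let-7d-5p, 4 for miR-27b-3p and 4 for miR-151a-5p, beside 49.2%, 50.3% and 47.3% of all genes. Their medians were 0.12, 0.08 and 0.13, and 0 passed 1.5-fold. The 10 chaperones and editing factors of class I assembly had medians of 0.06, -0.04 and 0.05 in the same order, and 0 passed 1.5-fold. The largest difference among them was that of ERP29, a resident protein of the endoplasmic reticulum, at -0.39 on the let-7d-5p array. Beside these counts of 0, at least 1.5-fold higher were 4.42%, 5.07% and 5.29% of all genes in the same order. At least 1.5-fold lower were 3.56%, 4.7% and 3.57%.

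The 12 measured transcription factors of class I genes had medians of 0.00, 0.21 and -0.09 on the let-7d-5p array, the miR-27b-3p one and the miR-151a-5p one. RFXAP, a subunit of the RFX complex that binds the X box of MHC promoters, was the 1 factor past 1.5-fold. It read 6.50, 6.92 and 7.25 on these arrays, against 6.44 on the control array, and so was higher by 0.81 on the array on which TAP1 was low. Of all genes, 5.29% were at least 1.5-fold higher and 3.57% at least 1.5-fold lower on that array. The RFX subunits RFX5 and RFXANK, on the same list, were below the control there, at -0.25 and -0.31. NLRC5, the activator known for class I promoters, was at 6.09, 6.69 and 6.11, against 6.44 on the control array. Its differences were -0.35, 0.25 and -0.33 in that order. These signals were close to the floor of 5.34, and 6.09 and 6.11 lay below the higher floor of 6.27. IRF2, at 11.57 on the control array, was lower on every mimic array (-0.43, -0.40 and -0.39). NFYB, at 8.79 on the control array, was higher on each (0.43, 0.30 and 0.21). Of the 12 factors, 6, 8 and 5 were higher and 6, 4 and 7 lower in the same order.

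A list of interferon-induced genes was set beside the class I genes. All 14 measured genes of that list were higher on the let-7d-5p and miR-27b-3p arrays, with medians of 0.65 and 0.63, and 12 of 14 were higher on that of miR-151a-5p, where the median was 0.38. Of all genes, 49.2%, 50.3% and 47.3% were higher in the same order. At least 1.5-fold higher were 7, 8 and 4 of them, beside 4.42%, 5.07% and 5.29% of all genes, CIITA among them on the let-7d-5p and miR-27b-3p arrays but below the floor on all 4. CXCL10, a chemokine, was higher by 1.91, 1.90 and 1.37, and RSAD2, an antiviral enzyme, by 1.14, 0.64 and 0.86. IFIT2 was higher by 1.12, 1.13 and 0.80, IFIT1 by 0.93, 0.94 and 0.52 and MX1 by 0.84, 0.67 and 0.61, all of them antiviral effectors. GBP5 was higher by 0.80, 0.96 and 0.39 and GBP1 by 0.48, 0.61 and 0.27, which encode guanylate-binding proteins. On the same arrays the medians of the class I list were 0.04, 0.04 and -0.07. IRF1, an interferon-induced factor that acts on class I promoters, differed by 0.02, 0.24 and -0.09.

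**Figure D5:**
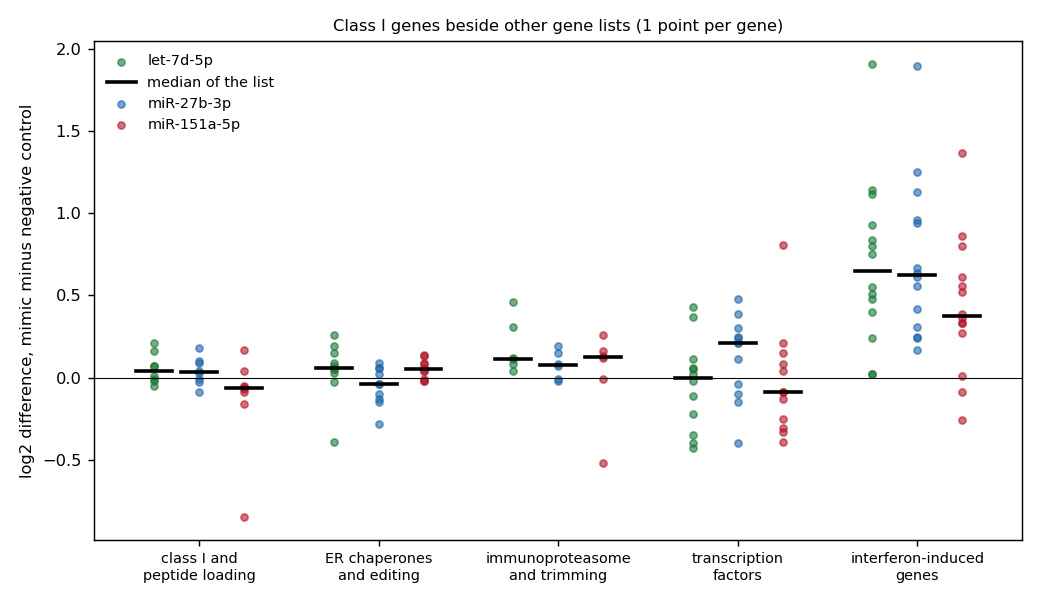
Log2 differences of the 3 mimic arrays from the negative control array for class I and peptide loading genes and 4 other lists, with 1 point per gene and a bar at the median of the list. The interferon-induced genes have medians of 0.65, 0.63 and 0.38, and the class I genes 0.04, 0.04 and -0.07.

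Class I-like molecules and receptors for class I were followed as well. MICB, a stress-induced class I-like ligand of NKG2D, read 9.52, 11.01 and 10.92 on the let-7d-5p array, the miR-27b-3p one and the miR-151a-5p one, against 10.84 on the control array, and so was low on the let-7d-5p array alone (-1.32). Of the 12 class I-like genes outside the set, 9 were above the floor on some array, and MICB was the 1 that passed 1.5-fold and lay above the floor on all 4. On the let-7d-5p array 3.56% of all genes were at least 1.5-fold lower. KLRC1, which encodes the NKG2A receptor for HLA-E and has near-identical relatives, was at 8.01, 6.96 and 7.55, against 7.98 on the control array. It was low on the miR-27b-3p array (-1.02), on which HLA-E was at 0.10 over the control. The other 4 measured genes of the receptor list, LILRB2, LILRB3, LILRB5 and KLRD1, were below the floor on all 4 arrays. LILRB1, LILRB4 and KIR2DL4 of the same list were not measured. Among 6 measured transporters of the ABCB family, to which TAP1 and TAP2 belong, ABCB1 was the 1 that passed 1.5-fold above the floor. It was higher by 0.62 on the miR-151a-5p array, where 5.29% of all genes were at least 1.5-fold higher. Its signals were close to the floor of 5.34, at 6.43 on that array against 5.81 on the control array.

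The genes whose pattern lay closest to TAP1 were found by the root mean square distance between the 3 differences from the control, over the 11112 genes above the floor on all 4 arrays. They were PPARGC1B (0.04), RABL3 (0.09), ZNF436 (0.10), THSD7A (0.11) and DSC2 (0.12). On the miR-151a-5p array these 5 differed by -0.81, -0.79, -0.87, -0.72 and -0.72 in that order. None of them is on a list used here.

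The labelled cell type was checked by its markers. Of 12 measured macrophage and monocyte markers 11 were above the floor on each array, with medians between 13.3 and 13.4, and MRC1 was the exception. Of these, CD163, a scavenger receptor, passed 1.5-fold on the let-7d-5p array (0.74), where 4.42% of all genes were at least 1.5-fold higher. Genes of other cell types were not all at background. Of 9 T and NK genes, 5, 3 and 5 were above the floor on the mimic arrays, against 4 on the control array. CD2, CD3D, CD8A and KLRD1 were below the floor on all 4 arrays, CD3E and PRF1 were above it on some, and CD3G, NKG7 and GNLY were above it on all. GNLY, an effector of cytotoxic cells, was the highest, at 11.22, 11.02 and 10.55, against 11.06 on the control array, and so was lowest on the array on which TAP1 was low. On that miR-151a-5p array 5 of the 9 genes were higher than on the control and 4 lower, beside 47.3% and 51.0% of all genes. The median difference of the list there was 0.04. CD3D, below the floor, had the largest difference of the list (-1.28 on the let-7d-5p array). The log2 of the summed signal of the T and NK list was 11.5, 11.3 and 10.9 on the let-7d-5p array, the miR-27b-3p one and the miR-151a-5p one, against 11.4 on the control array. Most of that sum is the signal of GNLY, so that the sum follows this 1 gene rather than the list. The part of these genes in the TAP1 difference was not tested. Of 4 measured B cell genes, CD79A, CD79B and PAX5 were above the floor on all 4 arrays, and the largest difference was that of CD79B, at -0.42 on the miR-151a-5p array. Of 5 epithelial genes, KRT8, between 8.92 and 9.53, and KRT19 were above it on all 4, and CDH1, below it, had the largest difference (-1.63 on the let-7d-5p array). Of 5 measured fibroblast and endothelial genes, PECAM1, which myeloid cells also express, was between 13.95 and 14.13, and COL1A2 and VWF were above the floor on all 4 arrays as well. COL1A1 had the largest difference of that list, 0.74 on the let-7d-5p array, and was below the floor on the control array. The 9 measured reference genes had medians of -0.07, -0.05 and -0.03, and the largest difference was that of TBP, 0.19 on the miR-151a-5p array. Over all genes above the floor the differences had a standard deviation of 0.30, 0.33 and 0.32.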

How the data were processed

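Gene expression was measured with 1 Clariom S array for each of 4 cultures. The authors deposited log2 signals, 1 per probe set. RMA, which corrects background, equalizes arrays and summarizes probes, and Transcriptome Analysis Console 4.0 stand in the submitters' processing notes. Sources used here do not give the genome build of the annotation. The log2 scale was settled from the values, whose medians were 6.89 for let-7d-5p, 6.92 for miR-27b-3p, 6.90 for miR-151a-5p and 6.93 for the control. Values were used as deposited, and RMA would have removed any shift shared by all genes on an array.

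Of 21448 probe sets, 17709 were paired with 1 gene symbol, 0 with several and 3739 with none, and where several probe sets named a gene (20 genes), that of the highest mean stood for it. Gene identifiers were checked against RefSeq (GRCh38.p14), and 0 symbols changed. Each difference is the log2 value on the mimic array minus that on the control array. The size used was 1.5-fold (0.585 on the log2 scale), with 2-fold and the 3-fold of the study as alternatives. With 1 array per group no test was possible, and precision is limited by the number of arrays.

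The members and lists were chosen with earlier results of these data known. All members were named, and of each other list the genes past 1.5-fold and above the floor on all arrays, or else the one with the largest difference, and the 5 genes closest in pattern to TAP1. The effect of quantile normalization, centring, a pseudocount, the probe set rule and a higher floor is given in the closing section. PSMB8, PSMB9, NLRC5, IRF1, IRF2 and NFYB were named after their values were seen. Counting was tested on simulated data with changes of known size and little noise, which checks the calculation and not the counts in these data. Python 3.11.15, numpy 2.4.6, pandas 2.3.3 and matplotlib 3.10.9 were used.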

Additional observations from a re-analysis of the deposited data

How the results depend on the processing

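The differences of the 8 members were recomputed after a further quantile normalization, after centring each array on its median, on the log2(signal + 32) scale, which understates changes of low genes, and with the mean over the probe sets of a gene. Each member has 1 probe set, so the last of these could not move a member. All 72 values from the other 3 lay within 0.1 of those reported, a limit chosen because there are no replicates. The TAP1 difference on the miR-151a-5p array lay between -0.85 and -0.81 against the control, between -1.06 and -1.04 against the let-7d-5p array and between -0.90 and -0.87 against the miR-27b-3p array. At 2-fold and at 3-fold, 0 members were lower on the miR-151a-5p array in place of 1. Centring adds the same constant to every gene of an array and put the median difference of all genes at 0.04 on the let-7d-5p array and 0.06 on the miR-27b-3p array. By that shift small differences changed sign, which made 7 of 8 members higher on the let-7d-5p and miR-27b-3p arrays in place of 5. These were HLA-F and HLA-G on the first and HLA-F and TAPBP on the second. Quantile normalization put HLA-F at -0.0025 on the miR-27b-3p array in place of -0.01. The medians of the list moved by less than 0.1 with quantile normalization, centring, the pseudocount, the mean in place of the median (-0.13 on the miR-151a-5p array) and the list without TAP1. All 8 members were above the floor of 5.34 and above one of 6.27, at the 99th percentile of the olfactory receptor genes, so that neither floor could change a median or a count. No paired analysis was possible because each group has 1 array.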

Other observations

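A probe set annotated to HLA-L, a class I pseudogene that is not in the list and was picked after its values were seen, read 13.15, 13.24 and 13.21 on the let-7d-5p array, the miR-27b-3p one and the miR-151a-5p one, against 13.28 on the control array. It differed from the control by -0.13, -0.04 and -0.07, and the RNA behind this signal was not examined.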
